A study of Mus musculus with 106 samples.

Results

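The genes described here are Egfr and 8 other genes of growth factor and insulin signalling in mouse liver: Met, Igf1, Igfbp1, Igfbp2, Ghr, Insr, Irs1 and Irs2. They are 9 of the 21883 protein-coding genes of the gene table used. The set was chosen by measured values, since Egfr held some of the best placed regions of gained accessibility with T09, so what follows is a description and no p-value was computed. For each gene, every peak with its centre in the gene body (mm10) or within 10 kb of either end was read from 23 ChIP-seq peak lists, and the percent of the gene body inside gained regions was read from 4 ATAC-seq lists. ChIP-seq maps where a protein sits on DNA, and ATAC-seq maps open chromatin by transposase cutting.

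The livers came from Foxa2-KO mice (Foxa2loxP/loxP;Alfp.Cre) and from WT control littermates. For Foxa2 and FXR ChIP and for ATAC they were 8 to 12 weeks old and were taken 4 h after oral gavage of a ligand (GW4064 for FXR, GW3965 or T09 for LXR) or of vehicle. The LXR and PPAR ChIP samples were of 3 month old mice on C57BL/6, with no route or interval in their labels, and the LXR labels give an agonist only as GW. Foxa2 was mapped in WT alone, with GW3965, T09, GW4064, and the vehicles Veh and GW4064-Veh. FXR was mapped with GW4064 and GW4064-Veh, LXR with GW, T09 and Veh, and PPAR with GW3965, T09, GW4064 and Veh, each in Foxa2-KO and in WT. ATAC lists give regions gained over vehicle with GW4064 in Foxa2-KO and with GW4064, GW3965 or T09 in WT, and they hold no lost regions. Each group is 1 list (labels give 1 sample for each Foxa2 and WT LXR group, 3 for each Foxa2-KO LXR group, 2 for those of FXR and of PPAR, and 2 or 3 in every ATAC arm), so no value here has a replicate error. The Foxa2 samples with GW3965, T09 and Veh are each labelled as 3 replicates in a single raw file.

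Egfr and Met are receptor tyrosine kinases that bind epidermal growth factor family ligands and hepatocyte growth factor, and both drive hepatocyte growth and survival. Growth hormone acts through the receptor encoded by Ghr to switch on Igf1, the circulating growth factor made mainly by the liver, and Igfbp1 and Igfbp2 encode secreted proteins that bind it. Insr encodes the insulin receptor, and Irs1 and Irs2 the adaptors that it phosphorylates. Foxa2 is a forkhead factor that can bind closed chromatin, and FXR, LXR and PPAR are nuclear receptors for bile acids, oxysterols and fatty acids.

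Foxa2 peaks lay at every one of the 9 genes, and they were more densely placed there than over all genes in each of the 5 lists. With GW3965 all 9 genes held a Foxa2 peak, where 36.9% of all protein-coding genes did. With T09 again all 9 did, against 39.2% of genes, and with GW4064 8 did (all but Igfbp2), against 38.8%. With Veh 6 genes held one, against 12.1% of genes, and with GW4064-Veh 7 did, against 17.8%. Met, Igf1, Igfbp1, Ghr, Irs1 and Egfr held a peak in all 5 lists, as 9.98% of all genes did. Several of these genes are long, so the density of peaks is given too. With GW3965 the 9 genes and their flanks held 63.4 Foxa2 peaks per Mb, where all genes held 12.7 per Mb. With T09 the densities were 54.8 at the 9 genes and 12.5 at all genes, and with GW4064 66.3 and 11.6. With Veh they were 18.3 and 2.46 per Mb, and with GW4064-Veh 22.1 and 3.8. The lists differ in length, from 4348 peaks with Veh to 25318 with T09, and a longer list places more peaks at any gene.

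**Figure D1:**
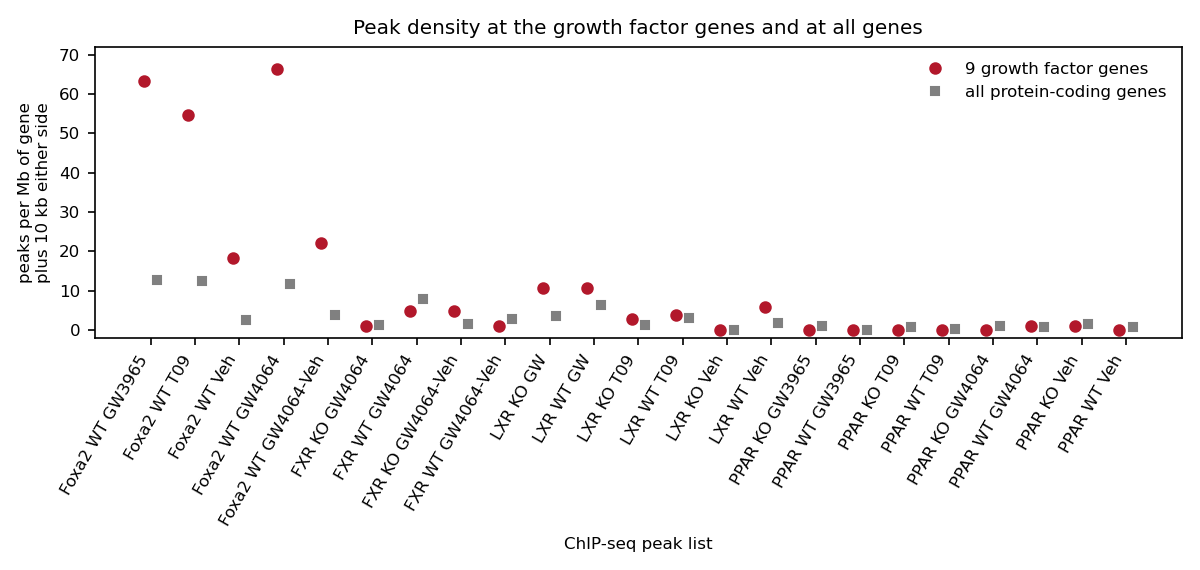
Peaks per Mb of gene body plus 10 kb either side (y axis) in each of 23 ChIP peak lists (x axis; KO, Foxa2-KO), for the 9 growth factor genes (red circles) and all protein-coding genes (grey squares). The red points stand well above the grey ones in the 5 Foxa2 lists, at 63.4 against 12.7 with GW3965, and lie near 0 in the 8 PPAR lists. In the LXR lists they lie above the grey ones in 5 of 6, and in the FXR lists in 1 of 4.

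The 234 Foxa2 peaks at the 9 genes fell into 104 separate sites once overlapping peaks were merged. Of these sites 16 were in all 5 lists, 17 were in all 3 ligand lists and neither vehicle list, and 53 were in 1 list alone. Only 3 were found with vehicle and with no ligand. All 19 Veh peaks at the genes overlapped a GW3965 peak and a T09 peak, and over the whole Veh list 98.8% and 97.1% did. In the other direction 28.8% of the GW3965 peaks at the genes, and 20.1% of the whole GW3965 list, overlapped a Veh peak. These shares follow from lists of unequal length and do not measure binding strength.

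**Figure D2:**
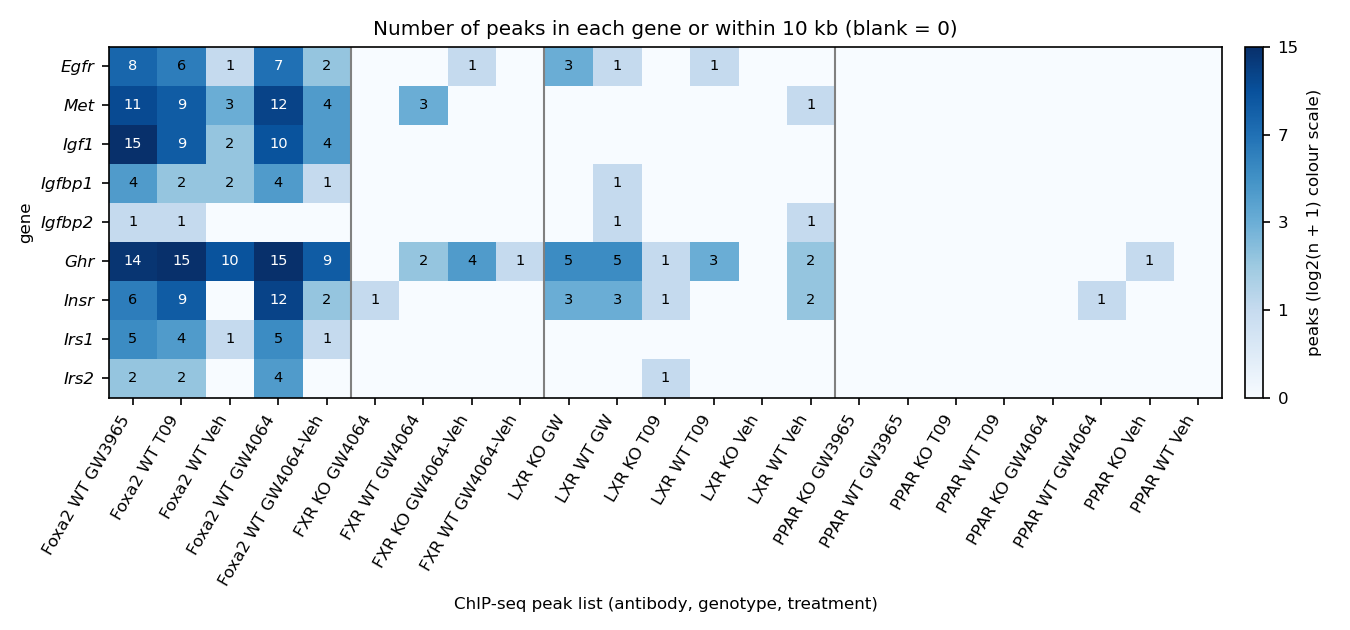
Number of peaks in each gene or within 10 kb of it (rows) in each of the 23 ChIP peak lists (columns; KO, Foxa2-KO), with colour on a log2 scale and empty cells for 0. Counts are highest in the Foxa2 columns, up to 15 at Igf1 with GW3965 and at Ghr with T09 and GW4064, and the PPAR columns hold 2 peaks in all.

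Egfr (chr11:16752203-16913907, plus strand) stood out in the ATAC lists. With T09 in WT, gained regions covered 82.9% of its body, or 134 kb, in 71 regions counting the flanks. Only Egfr and Igf1 of the 9 genes passed the limit of 25% of the body with T09, as did 1.54% of all genes. Among the 4944 genes of 50 kb or more, Egfr ranked 3rd in coverage with T09, and 0.364% of those long genes passed 25%. In Foxa2-KO with GW4064 the gained regions covered 19.4% of the Egfr body, in 19 regions counting the flanks, and in WT with GW4064 they covered 0%. With GW3965 in WT they also covered 0%. No member passed the limit in Foxa2-KO with GW4064 (1.66% of all genes), in WT with GW4064 (1.94%) or in WT with GW3965 (2.26%). At 25%, Igf1 with T09 (43.6%) was the member just inside the limit, and Egfr in Foxa2-KO with GW4064 (19.4%) just outside.

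The gain with T09 spread along the whole Egfr gene but left out its start. A run of 67 regions with gaps of at most 5 kb began 1542 bp inside the gene and ended 11.3 kb past its other end, 171 kb in all. The promoter at chr11:16751953-16752252 overlapped no gained region and no ChIP peak. Best placed in the authors' deposited T09 list was the region chr11:16894556-16907055, entry 5, 12500 bp wide, with a q of 1.22e-225. The widest region, of 13761 bp at chr11:16797282-16811042, was entry 11 of the authors' deposited list with a fold of 2.1. Of the 71 regions 26 were among the first 100 of the 60868 entries.

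Folds were highest in the far part of the gene. Cut into 5 equal stretches of 32.3 kb from its start, Egfr was covered by T09 regions for 76.2%, 94.7%, 83.0%, 79.5% and 81.0% of their length. The length-weighted folds over vehicle, taken from the authors' deposited list, were 2.03, 2.33, 2.63, 3.5 and 3.22 in the same order. The highest single fold in that authors' deposited list, 9.88, belonged to a region of 15 bp, and the next 2, 6.59 and 6.22, to regions of 166 and 178 bp.

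In Foxa2-KO with GW4064 the Egfr gain lay in the far end of the gene alone. The first 3 of the 5 stretches held no gained region, the fourth was covered for 20.7% and the last for 76.2%. The best placed region, chr11:16899801-16909768, was entry 8 of the authors' deposited list, with a fold of 1.63 and a q of 3.2e-46. A further region, chr11:16917176-16921053, past the gene's end, was entry 14 of the authors' deposited list with a fold of 1.82. The run of regions ended 11.6 kb past the gene. The nearest protein-coding genes on either side, Sec61g at 244 kb and Fbxo48 at 37.3 kb, were covered for 0% in all 4 comparisons. Whether the gain with GW4064 differs between Foxa2-KO and WT livers was not tested, since each is 1 list.

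**Figure D3:**
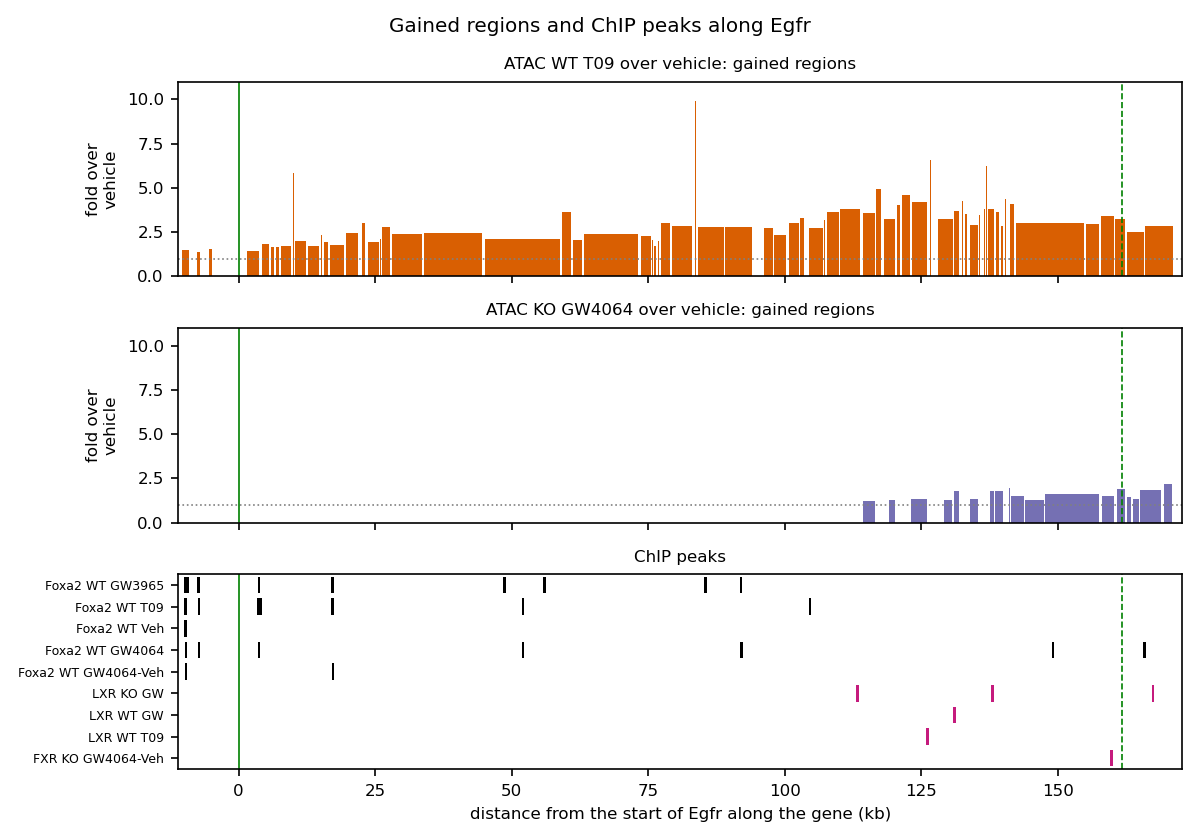
Egfr and its 10 kb flanks by distance from the gene's start (x axis, kb; solid green line, start; dashed, end). The upper panels give gained ATAC regions as boxes whose height is the authors' fold over vehicle (dotted line at 1), with T09 in WT and with GW4064 in Foxa2-KO (KO), and the lowest panel gives ChIP peaks of each list. T09 regions fill nearly the whole gene, those of Foxa2-KO with GW4064 begin 114 kb from the start, and the LXR peaks lie past 113 kb.

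The Foxa2 sites found in 3 or more lists lay before Egfr and within the first 17.1 kb of its body. Egfr held 8 Foxa2 peaks with GW3965, 6 with T09, 1 with Veh, 7 with GW4064 and 2 with GW4064-Veh. The site chr11:16742201-16743070, 9.57 kb before the gene, was in all 5 lists, at entry 235 with GW3965, 2170 with T09, 2522 with Veh, 1784 with GW4064 and 2649 with GW4064-Veh. It lay near the window's limit: its Veh peak was centred 9760 bp from the gene, and the first ChIP peak beyond the limit, of LXR in Foxa2-KO with GW, was at 16937 bp. The sites chr11:16744673-16745164 and chr11:16755550-16756526 were in the 3 ligand lists alone, and chr11:16769132-16769399 was in those of GW3965, T09 and GW4064-Veh. All 6 Foxa2 peaks of the T09 list overlapped a region gained with T09. Such regions cover 79.7% of Egfr with its flanks, the measure by which the gene was singled out, so this count adds nothing to it.

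The 5 LXR peaks at Egfr lay in its far part. WT livers with T09 gave 1 LXR peak, chr11:16878077-16878201, at entry 685 with a q of 0.0259 in the authors' deposited list, and it overlapped a region gained with T09, as did most of the gene. Foxa2-KO livers with T09 gave none. Foxa2-KO livers with GW gave 3 LXR peaks, against 1 in WT livers with GW at chr11:16882958-16883056, and none of the 3 overlapped it. Over the whole lists 3.37% of the Foxa2-KO peaks with GW overlapped a WT peak, so non-overlap was usual. The best of the 3, chr11:16865307-16865360, had a q of 0.0339 in the authors' deposited list. FXR gave a single peak of 7 bp in Foxa2-KO livers with GW4064-Veh, at chr11:16911718-16911724.

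Over the 27 lists Egfr had a peak or region in 11. The 5 protein-coding genes most like it by the Jaccard index (lists shared over lists in either) were Pawr at 0.846, Serpina11, Usp16 and Eef2 at 0.818, and Scgb1a1 at 0.786. None of these 5 was covered as Egfr was: with T09 gained regions covered 1.14% of Pawr, 23.4% of Serpina11, 0% of Usp16 and Eef2 and 8.6% of Scgb1a1. Among the 9 genes and over the 23 ChIP lists, Egfr was most like Igfbp1 (0.667, 6 lists in both) and Ghr (0.643, 9 lists in both).

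Met (chr6:17463349-17573980, plus strand) carried the best placed Foxa2 peak of any of the 9 genes. The site chr6:17491451-17491870, in the gene body 28.3 kb from its start, was in all 5 lists, at entry 52 with GW3965, 42 with T09, 23 with Veh, 98 with GW4064 and 19 with GW4064-Veh. Its neighbour chr6:17492106-17492441 and the site chr6:17503747-17504087 were in all 5 lists too. Foxa2 peaks at Met numbered 11 with GW3965, 9 with T09, 3 with Veh, 12 with GW4064 and 4 with GW4064-Veh. The sites chr6:17469063-17469324, chr6:17485717-17486116, chr6:17513469-17513701 and chr6:17568698-17569048 were found with each ligand and with neither vehicle.

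Accessibility gained at Met was slight. Foxa2 peaks there overlapped a region gained with the same ligand only with GW3965, the ligand with the largest such share over whole lists. Gained regions covered 4.33% of the body with GW3965, 0.517% with T09, 0.928% with GW4064 in Foxa2-KO and 3.5% with GW4064 in WT. With GW3965, 6 of the 11 Foxa2 peaks overlapped a gained region, where 25% of the whole Foxa2 GW3965 list did. With T09 0 of 9 did, where 3.89% of the whole Foxa2 T09 list did. With GW4064 0 of 12 did, where 5.84% of the whole Foxa2 GW4064 list did. FXR gave 3 peaks in WT livers with GW4064, of 52, 61 and 10 bp, none of them at a Foxa2 site. Over that whole FXR list 1.68% of peaks overlapped a Foxa2 peak with GW4064, so non-overlap was usual. LXR gave 1 peak of 11 bp with Veh in WT.

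**Figure D4:**
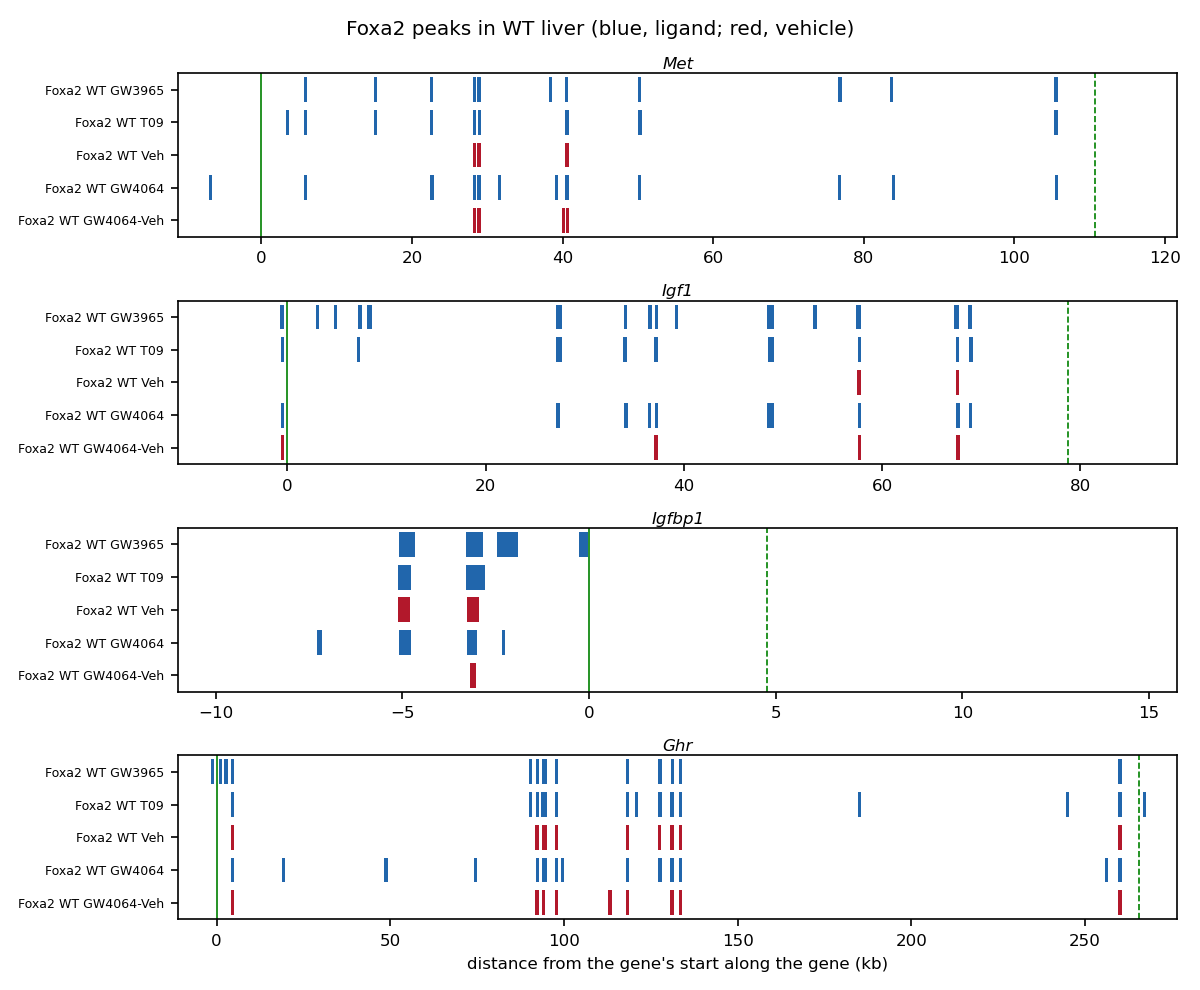
Foxa2 peaks in WT liver at Met, Igf1, Igfbp1 and Ghr by distance from each gene's start (x axis, kb; solid green line, start; dashed, end), in 1 row per list (blue, ligand; red, vehicle; the narrowest peaks are drawn wider than they are). Every red mark of Veh has blue marks above it at the same place, and 6 of the 8 Ghr sites in all 5 lists gather near the middle of the gene.

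Ghr (chr15:3317755-3583352, minus strand), the longest of the 9 genes at 266 kb, held the most peaks of all, 87 in 14 of the 23 ChIP lists. Foxa2 gave 14 peaks with GW3965, 15 with T09, 10 with Veh, 15 with GW4064 and 9 with GW4064-Veh. Of its 24 Foxa2 sites 8 were in all 5 lists, more than at any other of the 9 genes. They lay at chr15:3578570-3579181, 4.48 kb from the gene's start, at chr15:3323068-3323475 near its other end, and in a cluster of 6 in between. That cluster held chr15:3490764-3491277 (entry 255 with T09), chr15:3489134-3489638, chr15:3485129-3485741, chr15:3464731-3465324, chr15:3451983-3452466 and chr15:3449516-3449926 (entry 441 with Veh). The sites chr15:3455533-3455894 and chr15:3488534-3488928 were in all lists but GW4064-Veh.

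At Ghr the T09 gain was largest towards the gene's far end, where its neighbours were gained too. Gained regions covered 10.5% of the body with T09, in 78 regions counting the flanks. They covered 2.22% with GW3965, 0.414% with GW4064 in Foxa2-KO and 0.864% with GW4064 in WT. In 5 equal stretches from the start the T09 coverage was 1.58%, 7.38%, 3.91%, 11.7% and 27.7%. Past that end lie Ccdc152 at 14.2 kb, covered for 28.0% with T09, and Selenop, which encodes the plasma selenium carrier, at 37.2 kb, covered for 83.4%. Of 15 Foxa2 peaks with T09 at Ghr, 3 overlapped a region gained with T09. Over the whole Foxa2 T09 list 3.89% did, and such regions covered 10.5% of the Ghr body, so nothing is read from this count.

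LXR and FXR peaks were found at Ghr in both genotypes. LXR gave 5 peaks with GW in Foxa2-KO and 5 in WT, 1 with T09 in Foxa2-KO and 3 in WT, and none with Veh in Foxa2-KO and 2 in WT. FXR gave none with GW4064 in Foxa2-KO and 2 in WT, and 4 with GW4064-Veh in Foxa2-KO and 1 in WT. No site without Foxa2 at Ghr was in more than 1 list. Such recurrence was rare over the whole lists too: of the Foxa2-KO peaks, 3.37% overlapped a WT peak for LXR with GW, 6.79% for LXR with T09 and 3.33% for FXR with GW4064. A single site, chr15:3462482-3462727, joined an LXR peak (WT with GW, entry 3485) to a Foxa2 peak (T09), and a PPAR peak of 4 bp was found in Foxa2-KO with Veh.

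Insr (chr8:3150922-3279649, strand not given in the reference used) held 2 of the 3 sites where peaks of LXR and Foxa2 overlapped. Over the whole WT lists, 0.76% of LXR peaks with GW overlapped a Foxa2 peak with GW3965. With T09 2.22% of LXR peaks overlapped a Foxa2 peak. The share was not computed for the Foxa2-KO LXR lists. At one end of the gene, the site chr8:3279427-3279751 was in 6 lists: LXR in Foxa2-KO with GW and with T09, LXR in WT with Veh, and Foxa2 in WT with GW3965, T09 and GW4064. The LXR peak of Foxa2-KO with GW, chr8:3279441-3279751, was entry 80 of 8803 with a q of 0.000136 in the authors' deposited list. That of Foxa2-KO with T09 was entry 2061 with a q of 0.0487, and that of WT with Veh was entry 195 with a q of 0.0219, both from the authors' deposited lists. WT livers with GW gave 3 LXR peaks at Insr and none at this site, and WT livers with T09 gave none at all. A further site, chr8:3256349-3256963, joined the 3 Foxa2 ligand lists to LXR in Foxa2-KO with GW.

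Foxa2 peaks at Insr came mostly from the ligand lists, which are much longer than the vehicle lists. Whether binding there differed between ligand and vehicle was not tested. The lists held 6 peaks with GW3965, 9 with T09, none with Veh, 12 with GW4064 and 2 with GW4064-Veh. The sites chr8:3215801-3216094 and chr8:3220127-3220550 were in the 3 ligand lists, and chr8:3243311-3243839 was also in GW4064-Veh. Several of the GW4064 peaks were narrow (5, 8 and 8 bp at entries 19250, 19246 and 19252), late in a list of 22666. Gained regions covered 0.462% of the body with GW4064 in Foxa2-KO and 8.57% in WT, and 0.434% with GW3965 and 2.84% with T09 in WT. An FXR peak of 23 bp in Foxa2-KO with GW4064 and a PPAR peak of 74 bp in WT with GW4064 were the only peaks of those antibodies there.

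Igf1 (chr10:87858265-87937047, plus strand) had the second highest T09 coverage of the 9 genes. Gained regions covered 43.6% of its body, 34.3 kb, with T09, in 54 regions counting the flanks. They covered 0% with GW3965, 0.255% with GW4064 in Foxa2-KO and 0.868% with GW4064 in WT. The best placed T09 region, chr10:87924547-87927718, was entry 101 of the authors' deposited list, with a fold of 1.95 and a q of 4.61e-26. Coverage in 5 equal stretches from the start was 52.7%, 39.0%, 56.1%, 40.4% and 29.5%. The length-weighted folds of the same stretches in the authors' deposited list were 1.55, 2.55, 1.89, 2.37 and 2.68. Much of the coverage came from regions of low fold: counting only regions with a fold of 2 or more in the authors' deposited list, it was 15.3%.

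All 40 ChIP peaks at Igf1 were of Foxa2. They numbered 15 with GW3965, 9 with T09, 2 with Veh, 10 with GW4064 and 4 with GW4064-Veh. The site chr10:87915630-87916157 was in all 5 lists, at entries 823 with GW3965, 941 with T09, 511 with Veh, 1005 with GW4064 and 752 with GW4064-Veh, and chr10:87925482-87926031 was in all 5 as well. The sites chr10:87857581-87857875, just before the gene, and chr10:87895313-87895572 were in the 3 ligand lists and GW4064-Veh. Found with the 3 ligands alone were chr10:87885337-87885965, chr10:87892185-87892509, chr10:87906646-87907333 and chr10:87926939-87927422. Of the 9 Foxa2 peaks with T09, 8 overlapped a region gained with T09, where such regions covered 36.2% of the gene with its flanks and 3.89% of the whole Foxa2 T09 list overlapped one. With 9 peaks at a gene described by its coverage, nothing is read from this share.

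Insr has no promoter sequence in the reference used, so its promoter was not examined. Promoters of 5 of the other genes were touched by a peak or a gained region: Igf1 by one gained with T09, Igfbp1 and Ghr by a Foxa2 peak with GW3965, and Igfbp2 and Irs1 by regions gained with GW3965 and with GW4064 in WT. The 3 of them that hold letters searched for are shown (RefSeq, GRCm38.p6, 250 bases before to 50 after the start site, 5′ to 3′). They span chr10:87860861-87861160 on the plus strand for Igf1, chr11:7197537-7197836 on the plus strand for Igfbp1 and chr1:82291390-82291689 on the minus strand for Irs1. Capitals mark matches on either strand to AGGTCA, the hexamer that nuclear receptors bind, in Igf1, and to TGTTTTG or TATTTTG in Igfbp1 and Irs1.
Igf1: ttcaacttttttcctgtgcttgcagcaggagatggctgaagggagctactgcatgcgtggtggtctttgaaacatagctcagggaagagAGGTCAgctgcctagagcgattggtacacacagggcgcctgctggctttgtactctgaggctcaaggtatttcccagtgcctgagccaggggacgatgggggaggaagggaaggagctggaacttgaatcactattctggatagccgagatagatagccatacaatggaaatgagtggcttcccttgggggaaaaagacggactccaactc
Igfbp1: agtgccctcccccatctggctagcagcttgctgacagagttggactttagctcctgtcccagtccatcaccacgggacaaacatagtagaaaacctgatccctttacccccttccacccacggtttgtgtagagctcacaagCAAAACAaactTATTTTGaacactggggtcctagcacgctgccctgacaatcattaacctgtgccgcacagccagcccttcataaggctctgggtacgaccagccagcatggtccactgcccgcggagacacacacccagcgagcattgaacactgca
Irs1: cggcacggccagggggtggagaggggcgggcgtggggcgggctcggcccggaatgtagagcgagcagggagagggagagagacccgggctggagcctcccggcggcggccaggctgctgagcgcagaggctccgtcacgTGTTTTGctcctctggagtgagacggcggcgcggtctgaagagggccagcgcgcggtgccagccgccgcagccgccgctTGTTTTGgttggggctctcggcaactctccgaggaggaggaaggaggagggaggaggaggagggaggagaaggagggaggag
No promoter found for these genes matched the forkhead letters TGTTTAC or TATTTAC, which 3.66% and 3.04% of all 32544 RefSeq promoters of this length hold. None matched the FXR inverted repeat or the LXR direct repeat of AGGTCA, held by 0.00922% and 0.0154% of promoters. The AGGTCA match in Igf1 began 161 bases before the start site, and 16.2% of promoters hold one. In Igfbp1 TGTTTTG and TATTTTG matched at chr11:7197679-7197685 and chr11:7197690-7197696, both inside the Foxa2 GW3965 peak chr11:7197525-7197757. That stretch has the letters of the insulin response element described in the rat and human IGFBP1 promoters, which binds forkhead factors. These last letters were chosen after the sequence was read, and 6.32% and 4.37% of promoters hold them.

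Igfbp1 (chr11:7197787-7202546, plus strand), whose product falls with insulin, is only 4.76 kb long, and all its 14 ChIP peaks lay outside the gene body. The site chr11:7194493-7195010, 3.04 kb before the gene, was in all 5 Foxa2 lists, at entries 1253 with GW3965, 857 with T09, 1221 with Veh, 1047 with GW4064 and 1926 with GW4064-Veh. The site chr11:7192656-7193118, 4.9 kb before it, was in all but GW4064-Veh. The peak at the promoter was in the GW3965 list alone, at entry 11220. LXR gave 1 peak of 27 bp with GW in WT, and no gained region fell in the body in any of the 4 comparisons.

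Igfbp2 (chr1:72824480-72852474, plus strand) had the fewest peaks, 4 in 4 lists. Foxa2 gave 1 with GW3965 (chr1:72842745-72842979, entry 11341) and 1 with T09 (chr1:72836067-72836261, entry 25051). LXR gave 1 of 7 bp with GW and 1 of 1 bp with Veh, both in WT. The gene's start was however inside gained regions with GW4064 in WT, at chr1:72823800-72825626, and with GW3965, at chr1:72823873-72825135. The second of these was entry 1007 of the authors' deposited list with a fold of 1.78. Over the body the coverage was 2.39% with GW4064 in Foxa2-KO, 4.18% with GW4064 in WT, 2.86% with GW3965 and 1.1% with T09.

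Irs1 (chr1:82233105-82291439, minus strand) had a gained region over its start with GW4064 and with GW3965 in WT. In WT with GW4064 the region chr1:82286253-82293142, 6890 bp and entry 903, took in the promoter and the first bases of the gene, and with GW3965 the region chr1:82289894-82293267 did. The GW3965 region was only entry 16188 of the authors' deposited list, with a fold of 1.16 and a q of 0.0126. The list of GW4064 in WT gives neither fold nor q. Coverage of the body was 0% with GW4064 in Foxa2-KO and 12.6% with GW4064 in WT, and 7.71% with GW3965 and 0.259% with T09. All its 16 ChIP peaks were of Foxa2. The site chr1:82286105-82286388, at the edge of the GW4064 region, was in all 5 lists at entries between 2541 and 3298, and chr1:82238321-82238663 was in the 3 ligand lists.

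Irs2 (chr8:10984681-11008929, minus strand) held Foxa2 peaks in the longer ligand lists alone, 2 with GW3965, 2 with T09 and 4 with GW4064. Both sites in the 3 ligand lists lay before the gene, at chr8:11009263-11010139 and chr8:11010960-11011468, and the other peaks of GW4064 were of 4 and 17 bp. LXR in Foxa2-KO with T09 gave 1 peak, chr8:11008389-11008433, at entry 562 with a q of 0.0432 in the authors' deposited list. Gained regions covered 8.48% of the body with T09, 0.272% with GW3965, 0.0454% with GW4064 in Foxa2-KO and 0.495% with GW4064 in WT.

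**Figure D5:**
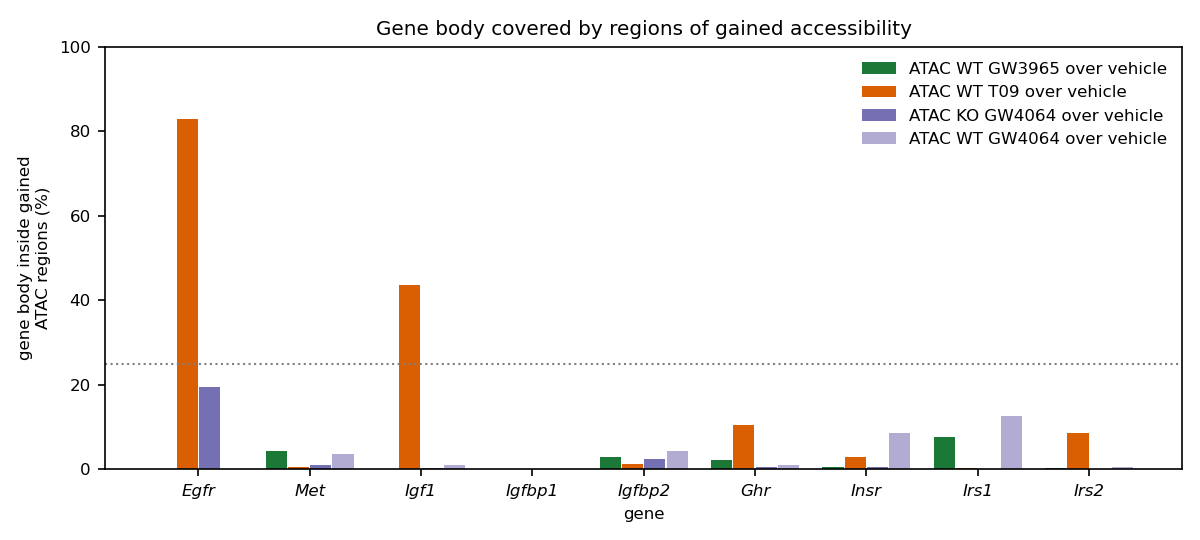
Percent of each gene body inside regions of gained accessibility (y axis) for the 9 genes (x axis) in 4 comparisons of ligand over vehicle (KO, Foxa2-KO), with a dotted line at 25%. Egfr (82.9%) and Igf1 (43.6%) with T09 pass the line, and Egfr in Foxa2-KO with GW4064 (19.4%) comes next.

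The 9 genes held 12 FXR, 35 LXR and 2 PPAR peaks, beside 234 of Foxa2. FXR was found at 1 of 9 genes with GW4064 in Foxa2-KO (6.8% of all genes) and at 2 in WT (30.5%), and with GW4064-Veh at 2 in Foxa2-KO (7.83%) and at 1 in WT (13.5%). With GW4064 the FXR density in Foxa2-KO was 0.961 peaks per Mb at the 9 genes and 1.33 at all genes, and in WT 4.8 and 7.96. With GW4064-Veh it was 4.8 at the 9 genes and 1.45 at all genes in Foxa2-KO, and 0.961 and 2.77 in WT. So FXR peaks were denser at the 9 genes than over all genes in 1 of its 4 lists, where 4 of the 5 peaks lay at Ghr.

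LXR was found with GW at 3 genes in Foxa2-KO (16.3% of all genes) and at 5 in WT (25.5%). With T09 it was found at 3 in Foxa2-KO (7.85%) and at 2 in WT (14.6%), and with Veh at none in Foxa2-KO (0.489%) and at 4 in WT (9.38%). The LXR density with GW was 10.6 peaks per Mb at the 9 genes in both genotypes, against 3.6 at all genes in Foxa2-KO and 6.47 in WT. With T09 it was 2.88 at the 9 genes and 1.31 at all genes in Foxa2-KO, and 3.84 and 3.16 in WT. With Veh it was 0 and 0.0921 in Foxa2-KO, and 5.76 and 1.91 in WT. LXR peaks were thus denser at the 9 genes in 5 of the 6 lists, but they were unevenly spread among the genes. Ghr held 5 of the 11 peaks with GW in each genotype, and Insr held 3 of the 11. With T09 Ghr held 3 of the 4 peaks in WT and 1 of the 3 in Foxa2-KO, and with Veh in WT it held 2 of the 6. By name, the Foxa2-KO lists of LXR carry a false discovery rate of 0.1 and the WT lists 0.05, although no q in the authors' deposited lists of either genotype is above 0.05. Whether the peaks of the 2 genotypes were called alike was not tested.

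PPAR was found at Insr with GW4064 in WT (4.23% of all genes) and at Ghr with Veh in Foxa2-KO (6.72%). In the authors' deposited lists the q was 0.0657 for the Insr peak and 0.0439 for the Ghr peak. The other 6 PPAR lists held no peak at the 9 genes: GW3965 in Foxa2-KO (4.55%) and WT (0.274%), T09 in Foxa2-KO (3.64%) and WT (0.722%), GW4064 in Foxa2-KO (4.54%) and Veh in WT (4.12%). The median width at the 9 genes was 253 bp for Foxa2, 71 bp for FXR, 83 bp for LXR and 39 bp for PPAR. Of the 44 sites without Foxa2, none was in 2 lists. No peak at the 9 genes fell in a region that lists of all 4 antibodies share. Such regions numbered only 102 over the whole lists, 390 kb in all, so little is read from this. The LXR lists of Foxa2-KO and WT with GW shared none of the 11 peaks each had at these genes, and over the whole lists 3.37% of the Foxa2-KO peaks overlapped a WT peak.

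Of 51 other genes of these pathways, 47 had a peak in some ChIP list (80.0% of all genes did) and 15 had a Foxa2 peak in all 5 lists (9.98%). With GW3965 74.5% of the 51 had a Foxa2 peak (36.9% of all genes), with T09 66.7% (39.2%), with Veh 37.3% (12.1%), with GW4064 70.6% (38.8%) and with GW4064-Veh 43.1% (17.8%). With GW4064 FXR was found at 2 of the 51 in Foxa2-KO (3.92%, and 6.8% of all genes) and at 26 in WT (51%, and 30.5% of all genes). With GW LXR was found at 10 in Foxa2-KO (19.6%, and 16.3% of all genes) and at 18 in WT (35.3%, and 25.5% of all genes). Many of the 51 are long, and long genes hold peaks more often. Of all genes of 20 kb or more, 10.5% held an FXR peak with GW4064 in Foxa2-KO and 45.4% in WT. An LXR peak with GW was held by 22.8% of them in Foxa2-KO and 35.1% in WT. A Foxa2 peak was held by 50.1% with GW3965, 56.3% with T09, 18.6% with Veh, 54.6% with GW4064 and 27.5% with GW4064-Veh. In most lists were Erbb4 and Nrg1, a receptor of the Egfr family and a ligand of that family, at 18 and 17 of 23 lists. Both genes are long, over 1000 kb. Next came Igf1r (the IGF receptor) and Igfbp7 with 10 lists each, and Socs2, a feedback inhibitor of growth hormone signalling, with 9.

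Only Igfals and Cish of the 51 were covered for 25% or more, and both are short, at 4.17 and 6.13 kb. With GW3965 1.96% of the 51 passed (2.26% of all genes), and with T09 3.92% did (1.54%). With GW4064 none did in Foxa2-KO (1.66%) or in WT (1.94%). Igfals, which encodes the liver protein that keeps IGF in a stable complex in plasma, was covered for 69.4% with GW3965 and 66.0% with T09, and for 0% with GW4064 in either genotype. Cish, a growth hormone target that inhibits cytokine signalling, was covered for 38.8% with T09, and for 1.89% with GW3965, 0% with GW4064 in Foxa2-KO and 5.08% with GW4064 in WT. Among the ligands of Egfr, Areg and Ereg held no ChIP peak in any list, and Tgfa held a Foxa2 peak in all 5. The Egfr inhibitor Errfi1 held a Foxa2 peak in all 5 lists too, with 0% of its body in gained regions in each comparison.

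Markers of liver cell types were read in the same way. Over the 5 Foxa2 lists a peak was at 5 to 7 of the 7 hepatocyte markers in the gene table, 3 to 5 of 6 markers of sinusoidal endothelium, 0 to 2 of 6 of stellate cells, 0 or 1 of 6 of Kupffer cells and 0 or 1 of 5 of cholangiocytes. Among all genes 12.1% to 39.2% held one, so the endothelial markers too lay above that share. Of these lists only hepatocyte markers were covered for 25% or more in any ATAC comparison (Alb, Ttr, Apob and Apoa1). In whole liver, a change in the cells present and a change within cells cannot be told apart.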

How the data were processed

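The 27 peak lists (23 ChIP-seq, 4 ATAC-seq) were used as deposited, in mm10, of 106 samples in 45 groups. RNA-seq and the ATAC samples of Foxa2-KO livers with LXR agonists were not analysed here. Reads were aligned with BWA to mm10 per the submitters' processing notes, and PeakSeq called peaks against input, or for ATAC against vehicle, per the labels. Each peak has a q-value in 19 of the deposited lists, and a fold over control and a −log10 of p in 5, the last not used here. Lists without q were read in the order of their entries, whose basis is not given in the sources used here. The 2 Foxa2-KO FXR lists held 7254 (GW4064) and 28147 (GW4064-Veh) blank rows, left out. The number of reads behind each peak is unknown. Positions are given 1-based.

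Gene bodies came from the RefSeq gene table (GRCm38.p6, 21883 protein-coding genes). A peak counted for a gene when its centre lay in the body or within 10 kb, coverage was the percent of the body in gained regions, with a limit of 25%, and sites are peaks merged on 1 base of overlap. Members and lists were chosen with earlier results of these data known. Named were all 9 genes, the best placed peak of most lists and every site in 3 or more lists, of the other pathway genes the 5 in most lists and those past 25%, and the 5 genes most like Egfr. With 1 list per group no test was run. Alternatives varied the window, coverage limit, width, q, fold and entries. Window counts and coverage were checked on simulated data. Of the 9 genes 8 have a RefSeq promoter sequence. Tools were python 3.11.15, numpy 2.4.6, pandas 2.3.3 and matplotlib 3.10.9.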

Additional observations from a re-analysis of the deposited data

How the results depend on the processing

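The number of the 9 genes with a peak stayed within 1.5 times in all 23 ChIP lists with the gene body alone, with 5 kb, and with any overlap in place of the centre. Leaving out the regions shared by all 4 antibodies could change no count, since no peak at the 9 genes fell in one. Sites in 3 or more lists (40) and in all 5 Foxa2 lists (16) were as many when overlaps had to reach 50% of the narrower peak. Within the first 500 entries Foxa2 was left at 2 genes with GW3965, T09 and Veh and at 1 (Met) with GW4064 and GW4064-Veh. LXR was then left at 1 gene (Insr) with GW in Foxa2-KO and with Veh in WT, and at 0 in its other lists, and FXR and PPAR at 0. With peaks of 100 bp or more every Foxa2 count held. FXR then fell to 0 with GW4064 in Foxa2-KO, 1 with GW4064 in WT and 1 with GW4064-Veh in Foxa2-KO, LXR to 2 with GW and 1 with Veh in WT, and PPAR to 0. At a q of at most 0.01 LXR was left at 1 gene (Insr, GW in Foxa2-KO) and at 0 in the other LXR lists, FXR at 0 with GW4064-Veh in Foxa2-KO, and PPAR at 0. With 50 kb the counts grew to 6 and 3 for FXR in WT with GW4064 and GW4064-Veh and to 9 for LXR in WT with GW. For PPAR in Foxa2-KO they grew to 1 with GW3965 and 2 with Veh.

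With T09, 1 gene (Egfr) was covered for 50% or more, and 1 for 25% when only regions with a fold of 2 or more in the authors' deposited list counted, Igf1 then being covered for 15.3%. At a limit of 10%, 1 gene passed with GW4064 in Foxa2-KO (Egfr) and 1 in WT (Irs1). In Foxa2-KO with GW4064 no Egfr region inside the body had a fold of 2, so its coverage became 0%. The fold limit could not be tried with GW4064 in WT, whose list has no fold, nor q in lists without it. No paired analysis was possible because each group is 1 list and no test was run. The peak lists give no read depth, so a gene without a peak is not shown to be unbound.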
